A study of Mus musculus with 9 samples.

Results

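The p53 group described here comprises Trp53, the gene of the transcription factor p53, and 9 of its target genes: Mdm2, Perp, Pmaip1, Bbc3, Bax, Ccng1, Aen, Sesn1 and Trp53inp1. The 10 genes were taken by symbol from a table of 24819 gene rows, and all 10 were found in it. All 10 also passed the filter on low values, at least 1 FPKM in at least 3 libraries, which 12330 genes passed. FPKM divide the fragments of a gene by its transcript length and the depth of the library, so levels can be set side by side between genes.

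RNA came from E14 cells, a male mouse embryonic stem cell line, in 3 media with 3 libraries each. Cells labelled EPSCM were grown in expanded potential stem cell medium. Those labelled 2iLIF were in serum-free N2B27 medium with leukemia inhibitory factor (LIF) and 2i, an inhibitor pair against MEK and GSK3. The group labelled ES was in serum medium with LIF. No label gives a mutation for any group, and no label ties the libraries to separate cultures. P-values therefore set the difference between media against the spread among these libraries, and that spread may be technical.

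p53 is a transcription factor that responds to DNA damage and other stress. It switches on genes of cell cycle arrest, repair, metabolism and cell death, and it induces Mdm2, the ubiquitin ligase that marks p53 for degradation and so closes a feedback loop. In mouse embryonic stem cells p53 is known to be abundant, and its protein is largely controlled after the message is made.

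The p53 consensus unit has 10 bases, with purines at the start, pyrimidines at the end and a core of C, A or T at both middle positions, then G; p53 binds a pair of such units. The unit was searched for in the 250 bases before each annotated start, in RefSeq promoter sequences of build GRCm38.p6, on both strands, which is a single search because the consensus is its own reverse complement. Of the 7 group members in that table, 6 held a match in at least 1 promoter, against 6.96% of the 9689 tested genes with a promoter there. The members were listed as p53 and its targets, so more matches than in other genes may follow from that choice. The 6 matches are shown because they let the letters in members of one pathway be compared. The consensus unit is in capitals, each sequence runs 5′ to 3′ on the strand of its gene, and each has 30 bases.
Trp53, chr11:69580274-69580303, plus strand: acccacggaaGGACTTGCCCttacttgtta
Mdm2, chr10:117710925-117710954, minus strand: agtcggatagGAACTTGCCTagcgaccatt
Bax, chr7:45467080-45467109, minus strand: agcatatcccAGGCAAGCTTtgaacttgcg
Ccng1, chr11:40755452-40755481, minus strand: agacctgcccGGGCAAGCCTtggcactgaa
Aen, chr7:78895927-78895956, plus strand: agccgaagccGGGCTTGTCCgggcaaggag
Sesn1, chr10:41887256-41887285, plus strand: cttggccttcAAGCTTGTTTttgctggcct
The first base of the match lay 75 bases before the start in Trp53, 186 in Mdm2, 201 in Bax, 185 in Ccng1, 121 in Aen and 173 in Sesn1. The Aen and Sesn1 matches belong to 1 of 2 annotated starts of each gene. No group promoter held the full site of 2 adjoining units, which 3 of 32851 promoters held. Bbc3 had 3 promoters in the table and no match, which says only that these letters are not in those windows. A match is a description of letters, not evidence of binding, and genes with several starts had more windows in which to match.

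The libraries were described before the members. Principal components 1 and 2 of the tested genes, with 48.9% and 41.3% of the variance, separated the media. Component 3, with 6.46%, set EPSCM replicate 2, 2iLIF replicate 1 and ES replicate 1 apart from the other 6, so each medium had 1 library that stands apart and a close pair. These 3 libraries carry the highest numbers in the sample titles, 19, 18 and 16, and the labels do not say what the numbers mean. The stem cell markers Pou5f1, Sox2, Nanog, Zfp42, Esrrb and Klf4 were all above 1 FPKM in each medium, but their sum was lowest in EPSCM, at 1452 to 1676 FPKM in EPSCM, 2397 to 2733 in 2iLIF and 2636 to 3072 in ES. Pou5f1 averaged 627 FPKM in EPSCM, 1064 in 2iLIF and 1352 in ES, and Zfp42 averaged 163, 404 and 534 FPKM in the same order, the order of media that Trp53 had. The other stem cell markers had other orders. Sox2 was lowest in 2iLIF, at 208, 181 and 254 FPKM. Nanog (295, 432 and 326 FPKM), Esrrb (175, 291 and 248) and Klf4 (61.5, 143 and 85.9) were highest in 2iLIF. The 8 fibroblast markers summed to 10.9 to 13.7 FPKM in EPSCM, 3.75 to 4.18 in 2iLIF and 15.0 to 17.6 in ES, nearly all of it Thy1 and Pdgfrb, and Dcn and Postn were at 0 in all 2iLIF and all ES libraries. The 7 primitive endoderm markers summed to 113 to 115 FPKM in EPSCM, 98.6 to 101 in 2iLIF and 86.9 to 88.0 in ES, mostly Sparc, and 5 of them averaged at least 1 FPKM in EPSCM, against 2 in 2iLIF and 2 in ES. Gata6 averaged 3.18 FPKM in EPSCM, 0.258 in 2iLIF and 0.675 in ES, Gata4 3.22, 1.19 and 0.817 FPKM, Dab2 2.04, 0.521 and 1.04 FPKM, and Pdgfra 1.04, 0.577 and 0.242 FPKM, all highest in EPSCM, while Sox17 and Foxa2 stayed under 0.6 FPKM on average in each medium. The 7 trophoblast markers summed to 46.7 to 54.7 FPKM in EPSCM, 71.2 to 82.1 in 2iLIF and 25.2 to 28.6 in ES, mostly Tfap2c and Krt8, and 3 of them averaged at least 1 FPKM in EPSCM, 4 in 2iLIF and 3 in ES. Eomes averaged 4.395 FPKM in EPSCM, 3.30 in 2iLIF and 1.04 in ES, Gata3 0.613, 0.290 and 0.0331 FPKM, and Hand1 0.866, 0.0340 and 0.139 FPKM, all highest in EPSCM, while Cdx2 averaged 0.0411, 2.85 and 0.109 FPKM and Elf5 stayed under 0.1 FPKM in each medium. The part of these shifts in the results below was not tested, and in bulk RNA fewer cells that express a gene and less RNA per cell cannot be told apart.

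Trp53 itself had its lowest level in EPSCM. It stood at 71.4, 84.7 and 72.0 FPKM in the EPSCM libraries, at 255, 223 and 221 FPKM in the 2iLIF libraries, and at 355, 301 and 299 FPKM in the ES libraries. The ranges of the 3 media did not overlap, with EPSCM far below the other media and ES highest. Trp53 was higher than 91.4% of the tested genes in EPSCM, 97.6% in 2iLIF and 98.0% in ES, so it remained an abundant message in each medium. On the log2(FPKM + 1) scale, on which all differences here are given ± SE, EPSCM minus ES was -2.05 ± 0.10 (limma, adjusted p = 1.93e-07), which put the EPSCM mean at 23.9% of the ES mean. EPSCM minus 2iLIF was -1.60 ± 0.10 (adjusted p = 8.77e-07), or 32.6% of the 2iLIF mean. Of the 12330 tested genes, 126 had a lower difference than Trp53 between EPSCM and ES, and 229 between EPSCM and 2iLIF. For 2iLIF minus ES it was -0.45 ± 0.10 (adjusted p = 0.00314). A call required a difference of at least 1 in size besides an adjusted p under 0.05, so this one was not called, and quantile normalization reduced it to -0.21 (adjusted p = 0.0524). The mouse genome also holds a pseudogene, Trp53-ps, and the sources used here do not say how fragments that match both were assigned.

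Mdm2, both a target of p53 and its main inhibitor, had another order of media. It was at 46.8, 41.0 and 48.8 FPKM in the EPSCM libraries, 36.1, 39.0 and 37.3 FPKM in the 2iLIF libraries, and 45.8, 52.6 and 49.0 FPKM in the ES libraries. The EPSCM and ES libraries overlapped, and 2iLIF lay below both. EPSCM minus ES was -0.11 ± 0.08 (limma adjusted p = 0.235), EPSCM minus 2iLIF 0.27 ± 0.08 (adjusted p = 0.0131) and 2iLIF minus ES -0.38 ± 0.08 (adjusted p = 0.00223), none of them called. The ratio of Mdm2 to Trp53 FPKM was 0.655, 0.484 and 0.678 in the EPSCM libraries, against 0.141, 0.175 and 0.169 in the 2iLIF libraries and 0.129, 0.174 and 0.164 in the ES libraries. The lowest EPSCM ratio, in the library that stands apart, was above every ratio of the other media, and the 2iLIF and ES ratios overlapped.

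**Figure D1:**
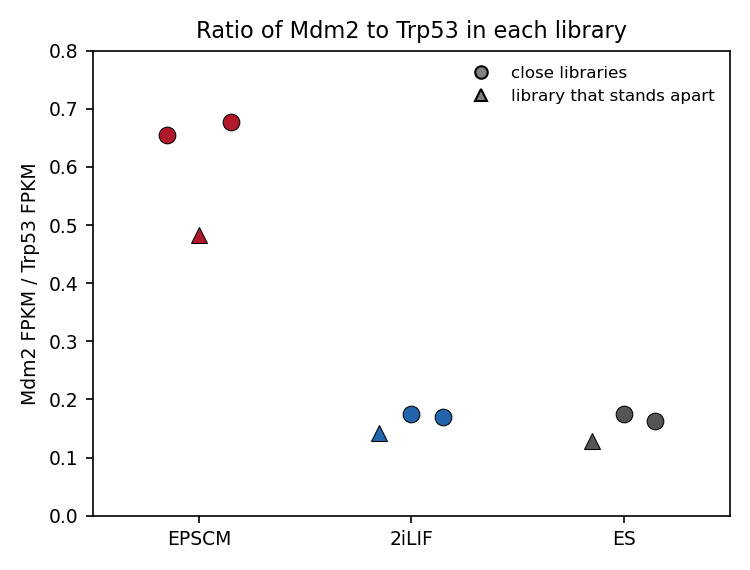
Ratio of Mdm2 FPKM to Trp53 FPKM (y axis) in each of 3 libraries per medium (x axis); triangles are the libraries that stand apart. The EPSCM libraries lie between 0.484 and 0.678, and all 2iLIF and ES libraries at or below 0.175.

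The genes of the mitochondrial death pathway did not share 1 order of media. Bbc3 (PUMA) and Pmaip1 (NOXA) are BH3-only proteins, which neutralise BCL2-type survival proteins, and Bax is a pore-forming effector of the mitochondrial outer membrane. Bbc3 was at 13.7, 16.4 and 14.1 FPKM in the EPSCM libraries, 7.06, 6.45 and 7.09 FPKM in the 2iLIF libraries, and 28.8, 24.0 and 24.7 FPKM in the ES libraries. The 3 media did not overlap, with ES highest and 2iLIF lowest. Bbc3 fell in 2iLIF relative to ES, by 1.77 on the log2 scale (-1.77 ± 0.09, limma adjusted p = 3.18e-07). EPSCM minus ES was -0.77 ± 0.09 (adjusted p = 5.18e-05), not called. EPSCM minus 2iLIF was 1.00 ± 0.09 (adjusted p = 1.14e-05), just short of the fold limit, and 6 of 19 alternative settings put it past that limit.

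Pmaip1 had another order of media. It stood at 18.5, 17.7 and 17.8 FPKM in the EPSCM libraries, 0.862, 1.01 and 0.798 FPKM in the 2iLIF libraries, and 11.4, 13.2 and 11.6 FPKM in the ES libraries. No 2 media overlapped, and Pmaip1 was close to the filter limit in 2iLIF. EPSCM was 20.2-fold above 2iLIF in mean FPKM. On the log2(FPKM + 1) scale the difference was 3.33 ± 0.07 (limma adjusted p = 4.10e-09). In that comparison 25 of the tested genes had a larger rise on this scale. The added 1 FPKM understates the fold of so low a gene, and the difference ran from 3.17 to 4.20 over the 19 alternative settings. Pmaip1 fell in 2iLIF relative to ES (-2.79 ± 0.07, adjusted p = 6.75e-09), to 7.40% of the ES mean. EPSCM minus ES was 0.54 ± 0.07 (adjusted p = 1.17e-04), higher in 3 of 3 libraries but not called. The FPKM ratio of Bbc3 to Pmaip1 was 0.740, 0.925 and 0.794 in the EPSCM libraries, against 8.18, 6.36 and 8.89 in the 2iLIF libraries and 2.53, 1.83 and 2.13 in the ES libraries.

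Bax was the most abundant of the 9 targets in each medium. Its libraries had 146, 177 and 148 FPKM in EPSCM, 253, 217 and 212 FPKM in 2iLIF, and 284, 231 and 246 FPKM in ES. EPSCM lay below both other media, which overlapped each other. EPSCM minus ES was -0.69 ± 0.11 (limma adjusted p = 3.73e-04) and EPSCM minus 2iLIF -0.53 ± 0.11 (adjusted p = 0.00207), neither called. For 2iLIF minus ES it was -0.16 ± 0.11 (adjusted p = 0.234), and quantile normalization turned that sign, to 0.066. Quantile normalization also lowered the EPSCM minus ES difference, to -0.41.

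Perp, a tetraspan membrane protein of desmosomes that also serves p53-dependent death, marked the ES libraries. It was at 3.95, 3.70 and 3.10 FPKM in EPSCM, 3.70, 3.59 and 3.84 FPKM in 2iLIF, and 32.3, 29.97 and 28.3 FPKM in ES. EPSCM and 2iLIF overlapped fully, and both lay far below ES. Perp fell in EPSCM relative to ES to 11.9% of the ES mean (-2.77 ± 0.08, limma adjusted p = 1.83e-08), and 40 tested genes had a lower difference. It fell in 2iLIF relative to ES to 12.3% (-2.73 ± 0.08, adjusted p = 1.57e-08). For EPSCM minus 2iLIF it was -0.04 ± 0.08 (adjusted p = 0.658), a difference smaller than its error.

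Aen, a p53-induced exonuclease of DNA and RNA linked to apoptosis, was not called in any comparison. Its levels were 24.4, 33.6 and 24.6 FPKM in the EPSCM libraries, 39.7, 32.2 and 32.6 FPKM in the 2iLIF libraries, and 47.1, 38.9 and 37.8 FPKM in the ES libraries. EPSCM and 2iLIF overlapped, as did 2iLIF and ES, while every EPSCM library was below every ES library. EPSCM minus ES was -0.58 ± 0.14 (limma adjusted p = 0.00522), EPSCM minus 2iLIF -0.34 ± 0.14 (adjusted p = 0.0611) and 2iLIF minus ES -0.24 ± 0.14 (adjusted p = 0.169).

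**Figure D2:**
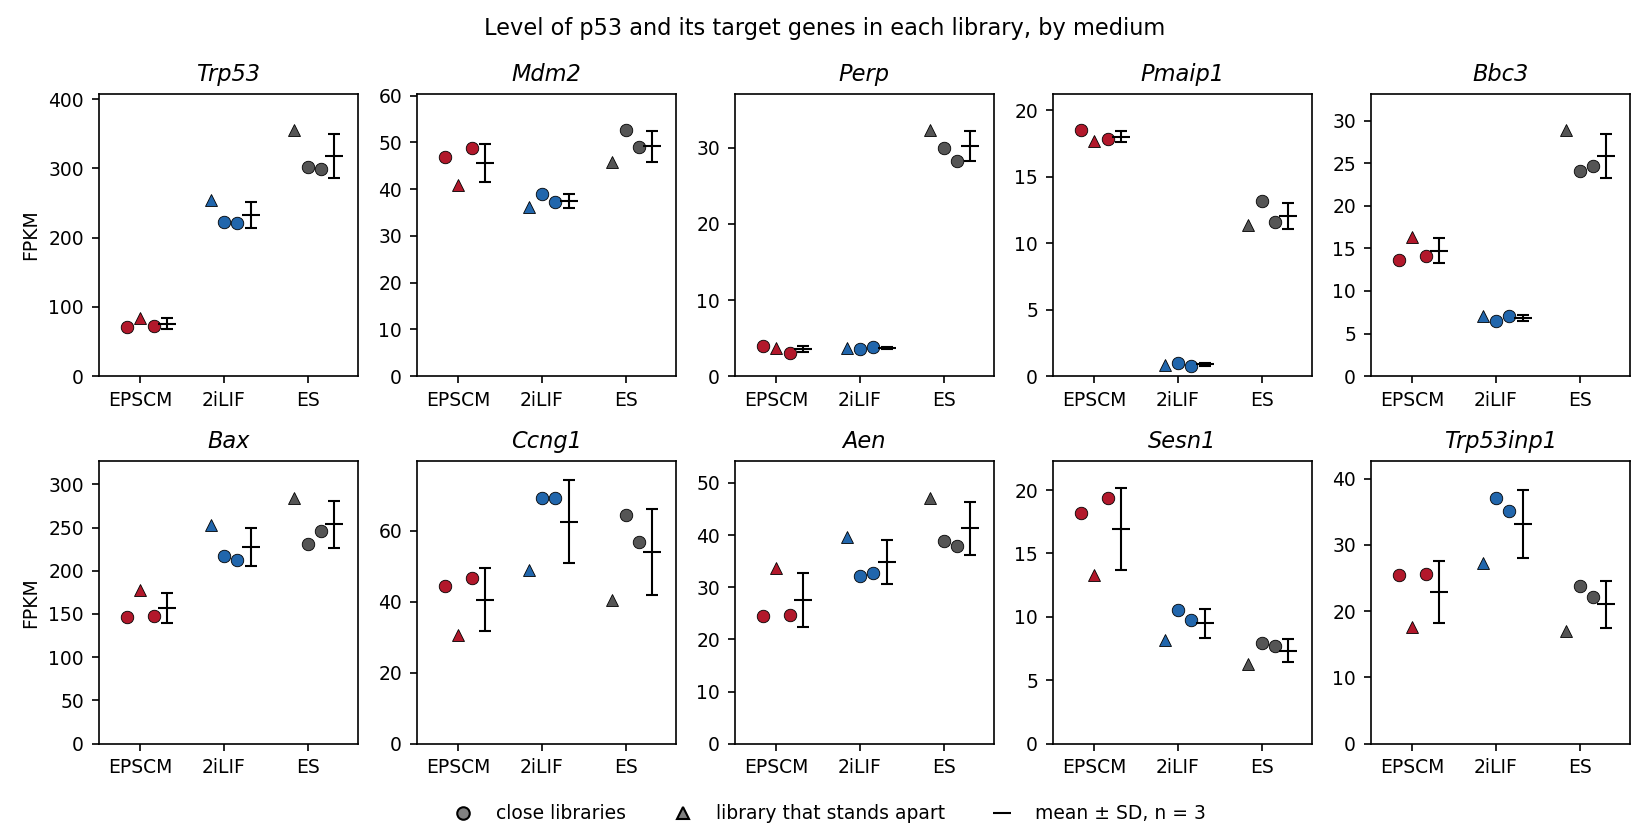
Level in FPKM (y axis, from 0, scaled per gene) of the 10 genes in each library by medium (x axis); circles are the close libraries, triangles the libraries that stand apart, and the bar beside them is the mean ± SD of 3 libraries. Trp53 is lowest in EPSCM at 71.4 to 84.7 FPKM, Pmaip1 and Bbc3 in 2iLIF, and Perp is below 4 FPKM in both EPSCM and 2iLIF against 28.3 to 32.3 in ES.

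The remaining 3 targets act outside the mitochondrial death pathway. Sesn1 encodes a sestrin, which restrains mTORC1 signalling and oxidative stress. It was at 18.2, 13.3 and 19.4 FPKM in the EPSCM libraries, 8.21, 10.5 and 9.71 FPKM in the 2iLIF libraries, and 6.29, 7.98 and 7.73 FPKM in the ES libraries. All EPSCM libraries lay above all others. Sesn1 rose in EPSCM relative to ES, 2.31-fold in mean FPKM (1.10 ± 0.15, limma adjusted p = 1.36e-04), against the direction of Trp53. That call sits near the fold limit and was lost after quantile normalization (0.97) and without EPSCM replicate 3 (0.995). EPSCM minus 2iLIF was 0.76 ± 0.15 (adjusted p = 0.00149) and 2iLIF minus ES 0.33 ± 0.15 (adjusted p = 0.0767).

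Ccng1 encodes cyclin G1, an atypical cyclin that acts with a protein phosphatase on MDM2. It was at 44.5, 30.6 and 46.8 FPKM in the EPSCM libraries, 49.0, 69.2 and 69.3 FPKM in the 2iLIF libraries, and 40.6, 64.4 and 57.0 FPKM in the ES libraries. Only EPSCM and 2iLIF did not overlap. For EPSCM minus 2iLIF it was -0.62 ± 0.22 (limma adjusted p = 0.0327), for EPSCM minus ES -0.40 ± 0.22 (adjusted p = 0.129) and for 2iLIF minus ES 0.22 ± 0.22 (adjusted p = 0.410).

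Trp53inp1 encodes a nuclear protein that promotes p53 phosphorylation and takes part in autophagy. Its levels were 25.5, 17.6 and 25.7 FPKM in the EPSCM libraries, 27.3, 37.1 and 35.04 FPKM in the 2iLIF libraries, and 17.0, 23.8 and 22.2 FPKM in the ES libraries. The 2iLIF libraries were above all others, and EPSCM and ES overlapped. The 2iLIF minus ES difference was 0.63 ± 0.18 (limma adjusted p = 0.0123), that of EPSCM minus 2iLIF -0.52 ± 0.18 (adjusted p = 0.0290) and that of EPSCM minus ES 0.11 ± 0.18 (adjusted p = 0.592).

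Counted over the group, EPSCM against ES gave 1 higher call (Sesn1) and 2 lower calls (Trp53 and Perp) among 10, against backgrounds of 11.7% and 7.97% of all tested genes. Of all called genes in that comparison 59.4% were higher, or 49.5% after quantile normalization, where the group had none higher and 2 lower. The median difference of the group was -0.49, beside 0.09 over all tested genes. EPSCM against 2iLIF gave 1 higher (Pmaip1) and 1 lower (Trp53), against backgrounds of 10.1% and 5.91%, with a group median of -0.19 beside 0.03. In that comparison 63.2% of all calls were higher, or 52.8% after quantile normalization, with the group's split unchanged at 1 and 1. 2iLIF against ES gave 3 lower (Perp, Pmaip1 and Bbc3) and none higher, against backgrounds of 7.12% lower and 7.62% higher, with a group median of -0.31 beside 0.03. With 10 genes these shares carry little weight, and the 3 comparisons share libraries.

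By adjusted p alone, without a fold limit, 7 of 10 genes passed in EPSCM against ES, where 73.1% of all tested genes did. The counts were 8 of 10 in EPSCM against 2iLIF, beside 68% of all, and 6 of 10 in 2iLIF against ES, beside 67% of all, so the group passed about as often as other genes. The libraries did not overlap for 7 of 10 genes in EPSCM against ES, 8 in EPSCM against 2iLIF and 7 in 2iLIF against ES, beside 74.1%, 71.1% and 70.6% of all tested genes. A moderated F test for any difference among the media passed for 9 of the 10, from an adjusted p of 4.06e-09 for Pmaip1 to 0.0191 for Trp53inp1, and missed for Ccng1 (adjusted p = 0.0658); 85.5% of all tested genes passed it.

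**Figure D3:**
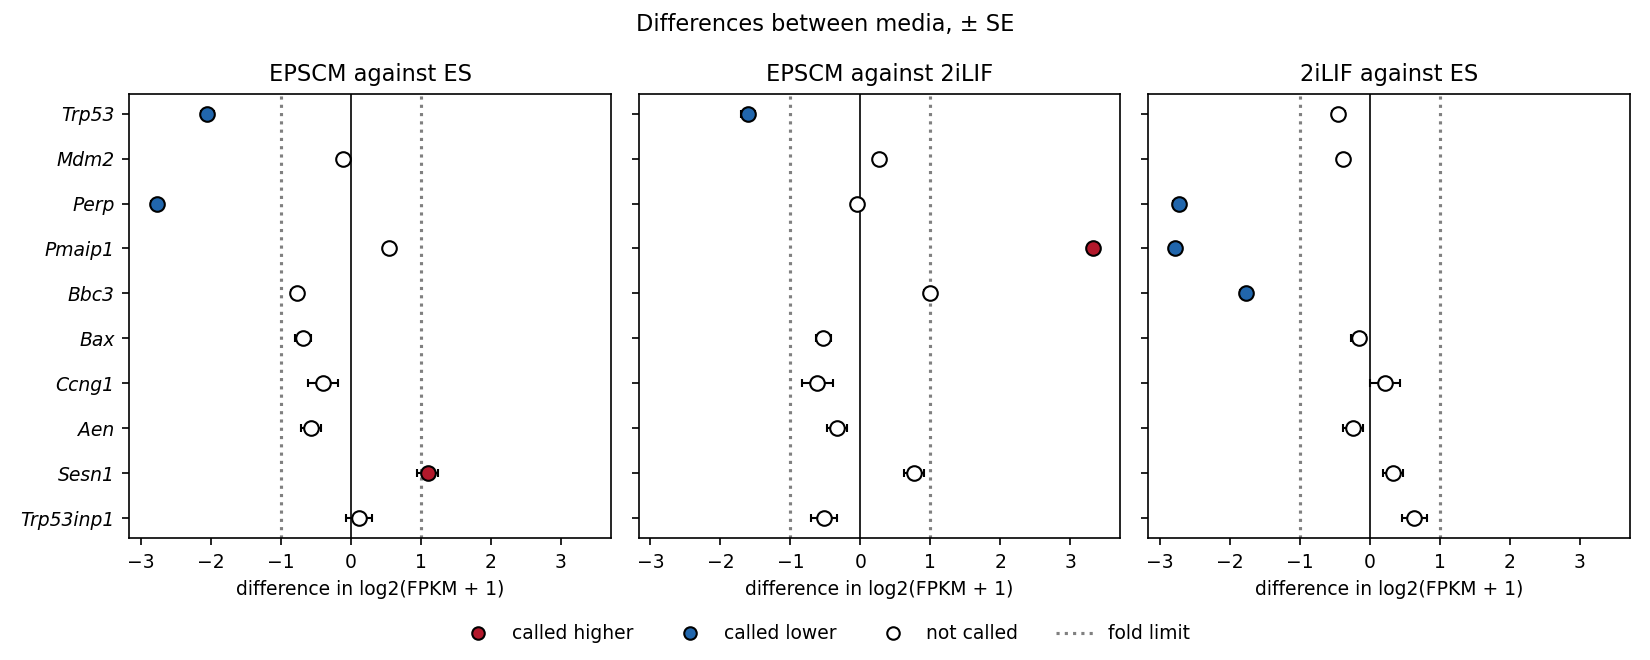
Difference in log2(FPKM + 1) ± SE (x axis) of each of the 10 genes (y axis) in the 3 comparisons; filled points were called, and dotted lines mark the fold limit of 1. Trp53 at -2.05 and -1.60 and Pmaip1 at 3.33 and -2.79 lie far from 0, while all 3 Mdm2 values lie between -0.38 and 0.27.

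Part of the spread within a medium came with the libraries that stand apart. Ccng1 in those libraries was at 67.0%, 70.8% and 66.8% of the mean of the close pair in EPSCM, 2iLIF and ES. Trp53inp1 was at 68.7%, 75.6% and 74.0%, and Sesn1 at 70.7%, 81.1% and 80.1%. Trp53, Bax and Aen went the other way, Trp53 to 118%, 115% and 118% of the close pair. The shift had the same sign in all 3 media for 9 of the 10 genes, Perp being the exception. It did so for 76.0% of all tested genes. The libraries that stand apart were picked from component 3 of these same data. Shared signs, and smaller errors in the next fit, follow in part from that choice. With these libraries as a covariate the differences were the same, since each medium has 1 of them, and the errors were smaller: 10 of 10 genes then passed the adjusted p in EPSCM against ES, 9 in EPSCM against 2iLIF and 10 in 2iLIF against ES, beside 87%, 84.8% and 84% of all tested genes under the same fit. With those 3 libraries left out, 9, 9 and 10 passed, beside 84%, 81.2% and 80.6% of all. The Trp53 differences were then -2.05, -1.62 and -0.43, in the same order of comparisons.

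**Figure D4:**
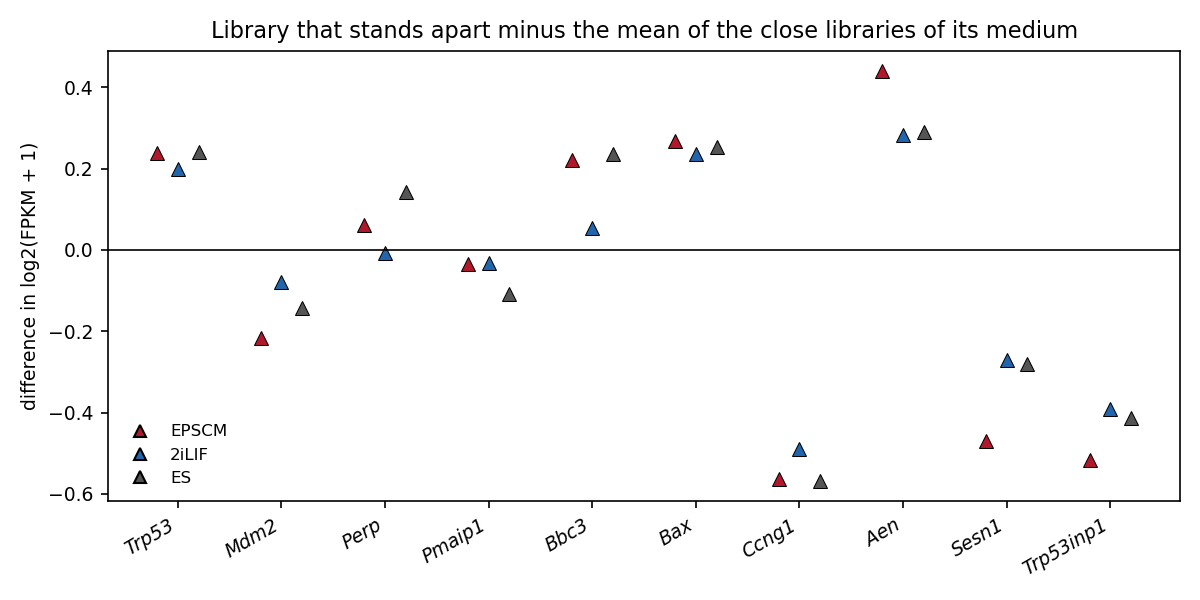
Level in the library that stands apart minus the mean of the close pair of its medium, in log2(FPKM + 1) (y axis), for the 10 genes (x axis) in EPSCM, 2iLIF and ES. Ccng1, Sesn1 and Trp53inp1 lie between -0.57 and -0.27 in all media and Aen between 0.28 and 0.44.

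Members of the pathway showed several patterns over the 9 libraries. The closest pair of profiles, by root mean squared distance between log2 values centred per gene, was Bax and Aen, at 0.10, and the most distant was Trp53 and Pmaip1, at 2.02. The genes outside the group closest to Trp53 were Zfp296, at 10.5, 34.4 and 54.0 FPKM on average in EPSCM, 2iLIF and ES, then Epop and Gpatch4, at distances of 0.11 each. Closest to Mdm2 were Sin3a, Wdr48 and Nfx1, at distances from 0.04 to 0.06. Perp was most closely followed by Tor3a, at 2.07, 2.41 and 19.03 FPKM, then Kifc3 and S100a6, at distances from 0.11 to 0.14.

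Further p53 targets, a list of 46 symbols, moved in both directions. This list and the lists below were chosen with earlier results of these data known. Their shares of calls only describe the lists. Of the 41 tested, 8 were higher and 9 lower in EPSCM relative to ES, or 41.5%, where 19.7% of all tested genes were called. The 9 lower include Rprm, which passed the filter on low values through its ES libraries alone. The list median was -0.07. After quantile normalization 5 were higher and 9 lower, and 7 were higher and 7 lower among the 36 outside chromosomes 1, 14 and Y, a choice made with the data seen. Phlda3, an inhibitor of AKT on chromosome 1, fell to 23.1 ± 1.82 FPKM in EPSCM, against 96.0 ± 7.93 in ES (-2.01 ± 0.09; levels are means ± SD, n = 3). Fbxo22, an F-box protein, fell (-1.69 ± 0.06), as did Btg2, an antiproliferative gene on chromosome 1 (-1.47 ± 0.07), and Acer2, a ceramidase (-1.33 ± 0.11). Steap3, a metalloreductase, also on chromosome 1, rose (1.40 ± 0.10), and so did Btg1 (1.29 ± 0.12).

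Cdkn1a, the cell cycle inhibitor p21 and the best known target of p53, was at 103, 115 and 101 FPKM in the EPSCM libraries, 174, 155 and 151 FPKM in the 2iLIF libraries, and 47.7, 41.2 and 40.9 FPKM in the ES libraries. The media did not overlap, and the order was not that of Trp53. Cdkn1a rose in EPSCM relative to ES (1.28 ± 0.09, limma adjusted p = 1.43e-06) and in 2iLIF relative to ES (1.86 ± 0.09, adjusted p = 1.70e-07). EPSCM minus 2iLIF was -0.59 ± 0.09 (adjusted p = 2.68e-04), not called. Ppm1d, the WIP1 phosphatase that switches off p53 signalling, fell in EPSCM to 6.09 ± 0.298 FPKM, against 14.002 ± 0.604 in ES (-1.08 ± 0.06, adjusted p = 6.22e-07). In 2iLIF it was at 12.4 ± 0.680 FPKM, which gave Ppm1d the order of media that Trp53 had. Its EPSCM minus 2iLIF difference was -0.92 ± 0.06 (adjusted p = 1.89e-06), not called.

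Against 2iLIF, EPSCM had 7 of the 41 further targets higher and 4 lower, or 26.8%, where 16.1% of all tested genes were called. Bid is among those 4 and is counted again with the BCL2 family below, because it is on both lists. Ddit4, an inhibitor of mTORC1, rose to 166 ± 16.9 FPKM in EPSCM, against 13.0 ± 1.52 in 2iLIF (3.58 ± 0.10). Trp53i11 (2.77 ± 0.10), Steap3 (2.10 ± 0.10), Ninj1, a membrane protein of plasma membrane rupture (1.88 ± 0.11), and the stress gene Gadd45a (1.45 ± 0.09) also rose, while Tigar, a regulator of glycolysis, fell (-1.37 ± 0.05). In 2iLIF relative to ES, 2 of the 41 were higher and 7 lower, or 22%, where 14.7% of all were called. Trp53i11 fell to 5.40 ± 0.673 FPKM in 2iLIF, against 40.0 ± 3.77 in ES (-2.68 ± 0.10), Gadd45a to 6.57 ± 0.905, against 39.1 ± 0.259, and Ddit4 to 13.0 ± 1.52, against 79.4 ± 6.43. Zmat3, an RNA-binding protein, fell (-1.23 ± 0.05), and Rprm, an arrest gene, was at 0.214 ± 0.0310 FPKM in 2iLIF, against 2.21 ± 0.173 in ES. Rprm is among the lower counts relative to ES, of EPSCM and of 2iLIF, but passed the filter on low values through its ES libraries alone, so those calls are given as a description only. The 5 further targets that were not tested, Fas, Dram1, Cd82, Spata18 and Kitl, had means of at most 1.11 FPKM in each medium.

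The regulators of p53 held few calls. Of 28 tested genes of the p53 family and its regulators, 1 was higher and 1 lower in EPSCM relative to ES, 1 was lower relative to 2iLIF, and 1 was higher in 2iLIF relative to ES, or 7.14%, 3.57% and 3.57%, where 19.7%, 16.1% and 14.7% of all tested genes were called. Cdkn2a, whose locus encodes the MDM2 inhibitor ARF and the cell cycle inhibitor p16, was at 41.9, 52.3 and 43.2 FPKM in the EPSCM libraries, 46.0, 37.4 and 37.3 FPKM in the 2iLIF libraries, and 4.51, 3.06 and 3.66 FPKM in the ES libraries. It rose in EPSCM relative to ES (3.31 ± 0.14, limma adjusted p = 8.73e-08) and in 2iLIF relative to ES (3.12 ± 0.14, adjusted p = 1.17e-07), and EPSCM minus 2iLIF was 0.18 ± 0.14 (adjusted p = 0.258); the gene value does not separate its 2 products. Sirt1, a deacetylase that acts on p53, fell to 5.70 ± 1.36 FPKM in EPSCM, against 15.99 ± 3.77 in 2iLIF and 13.5 ± 3.55 in ES.

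Mdm4, the partner of Mdm2, was at 58.8, 32.0 and 58.2 FPKM in the EPSCM libraries, 34.8, 62.0 and 58.3 FPKM in the 2iLIF libraries, and 44.7, 83.7 and 75.7 FPKM in the ES libraries. Its lowest value in each medium was that of the library that stands apart, and the media overlapped. Npm1, a nucleolar partner of ARF, behaved likewise, at 546 FPKM in the EPSCM library that stands apart and 1126 to 1145 FPKM in the EPSCM close pair. Aurka, a mitotic kinase that phosphorylates p53, differed by -0.44 ± 0.07 in EPSCM relative to ES (limma adjusted p = 4.29e-04), without a call. Its 2iLIF minus ES difference was -0.53 ± 0.07 (adjusted p = 1.65e-04), also without a call. For EPSCM minus 2iLIF it was 0.09 ± 0.07 (adjusted p = 0.302). Of the p53 relatives, Trp73 was tested and not called in any comparison, and Trp63 stayed under 0.2 FPKM in all libraries.

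Beyond Bbc3, Pmaip1 and Bax, 11 other BCL2 family genes were tested. In EPSCM relative to 2iLIF 3 were higher and 2 lower, or 45.5%, where 16.1% of all were called. The 3 higher were Bmf (2.64 ± 0.07), Bik (1.81 ± 0.11) and Bcl2l11, which encodes BIM (1.63 ± 0.06). Bmf stood at 15.0 ± 0.597 FPKM in EPSCM, against 1.56 ± 0.169 in 2iLIF. The 2 lower were the survival gene Bcl2l1 (-1.29 ± 0.10) and Bid (-1.06 ± 0.05). Bid is a BH3-only gene like the 3 higher, so such genes went both ways. BH3-only genes on this list without a call were Bad (-0.71 ± 0.13) and Hrk (-0.04 ± 0.07). The survival genes Mcl1 (0.90 ± 0.17) and Bcl2l2 (0.38 ± 0.07) were higher without a call. Mcl1 was at 223 ± 42.2 FPKM in EPSCM, against 118 ± 15.3 in 2iLIF. In 2iLIF relative to ES Bmf, Bik, Bcl2l11 and Bok were called lower and none higher, or 36.4%, where 14.7% of all were called. In EPSCM relative to ES, Bok (-1.45 ± 0.11) and Hrk were called lower and none higher, or 18.2%, where 19.7% of all were called. Hrk passed the filter on low values through its ES libraries alone, so its call is given as a description only. After quantile normalization 1 was higher and 2 lower, and without the libraries that stand apart 1 was lower.

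**Figure D5:**
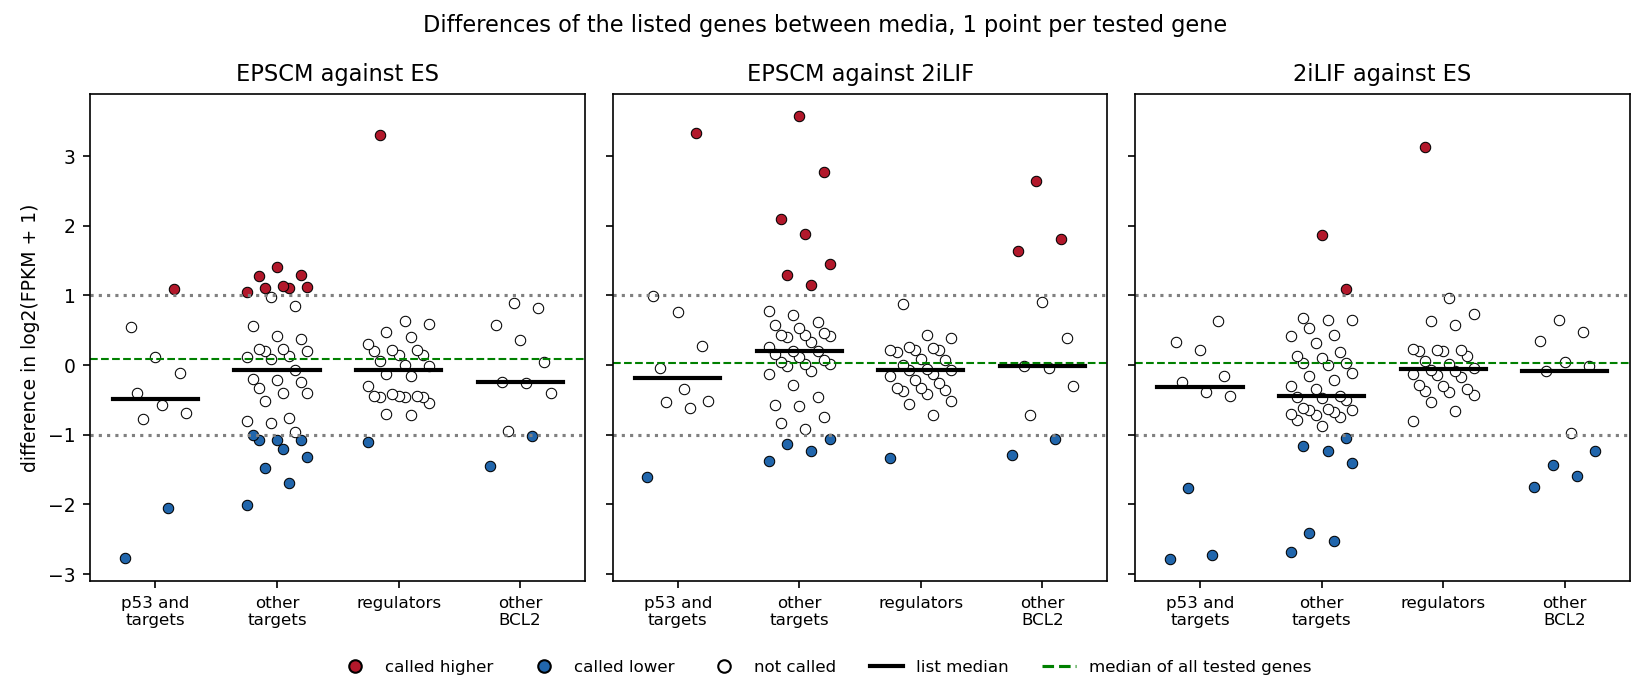
Difference in log2(FPKM + 1) (y axis) of each tested gene of the p53 group and of the 3 further lists (x axis) in the 3 comparisons; filled points were called, black bars are list medians and the dashed line is the median of all tested genes. The group medians are -0.49, -0.19 and -0.31, and the regulators lie within the fold limits of -1 and 1 except Cdkn2a at 3.31 and 3.12 and Sirt1 at -1.10 and -1.34.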

How the data were processed

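The deposited table gives FPKM per gene and library. Per the submitters' processing notes, the authors used STAR, Cuffnorm and mouse build mm9; the sources used here do not give versions, annotation, scaling between libraries or the strand setting. Libraries were stranded and poly(A) selected, per the labels' protocols. Each of the 9 columns matched 1 sample title. FPKM depend on the annotated transcript length and on the library total, so abundant genes can shift the rest.

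Values were taken as log2(FPKM + 1). A gene was tested where 3 or more libraries reached 1 FPKM. A single limma model (limma 3.58.1, R 4.3.3) with a mean per medium and a trended empirical Bayes prior was fitted over all 9 libraries, with 6 residual degrees of freedom. P-values were adjusted by Benjamini-Hochberg over all 12330 tested genes, and a gene was called where this p was under 0.05 and the difference reached 1 on the log2 scale in either direction. The log2(FPKM + 1) scale understates differences of low genes such as Pmaip1 in 2iLIF.

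The members and lists were chosen with earlier results of these data known. All 10 members are reported; from each further list up to 6 called genes per comparison were named, those with the largest difference whose higher mean reached 1 FPKM, plus Cdkn1a, Mdm4, Ppm1d, Cdkn2a, Aurka and Npm1. Replicates were numbered in accession order. Whether the close pairs are repeat preparations of 1 RNA was not tested; averaging them was an alternative. Chromosomes came from the RefSeq table of GRCm38.p6, in which no member overlaps another gene. The table holds no counts, and between 34.2% and 42.8% of low values of genes with a single annotated transcript fell within 0.15 of a whole number of fragments, too few to read the depth, so the depth is unknown and no counting interval is given.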

Additional observations from a re-analysis of the deposited data

How the results depend on the processing

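Over 19 alternatives and 30 member differences, 559 of 570 values kept their direction and their side of the call. That count includes alternatives that could not move a difference, only its p-value. These were fitting only the media compared, no variance trend, no filter, and the covariate for the libraries that stand apart. Leaving out a library of the medium not compared also kept each difference the same. The calls of Trp53, Perp, Pmaip1 and Bbc3 held under all 19. Sesn1 in EPSCM against ES lost its call after quantile normalization and without EPSCM replicate 3, and Bbc3 in EPSCM against 2iLIF gained one 6 times, at up to 1.09 with log2(FPKM + 0.1). Signs turned for 3 differences that were not called: Trp53inp1 in EPSCM against ES without ES replicate 1 (range on leaving out 1 library in turn -0.025 to 0.28), Perp in EPSCM against 2iLIF without EPSCM replicate 3 (range -0.10 to 0.034) and Bax in 2iLIF against ES after quantile normalization (0.066). Leaving out 1 library in turn gave 2 to 3 called members in EPSCM against ES, 2 to 3 in EPSCM against 2iLIF and 3 in 2iLIF against ES. With the close libraries averaged or with log2(FPKM + 0.1), EPSCM against 2iLIF had 3. With log2(FPKM + 0.1), 2738 genes were called in 2iLIF against ES, beside 1817. The same setting gave 3401 in EPSCM against ES, beside 2423, and 2835 in EPSCM against 2iLIF, beside 1979. Other BCL2 genes called in EPSCM against ES numbered 1, beside 2, without the libraries that stand apart and without the genes of chromosomes 1, 14 and Y, both chosen after seeing the data. Causes were not tested. With the close libraries averaged, 6, 5 and 5 members passed the adjusted p alone, in the order of comparisons above, beside 60.9%, 53.8% and 51.9% of all tested genes. No paired analysis was possible because the sample titles share no number between media; the covariate for the libraries that stand apart was set from the data. Without counts, the precision of low values such as Pmaip1 in 2iLIF is unknown.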
